A study of Bos taurus with 20 samples.

Results

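The comparison concerns the longissimus dorsi (LD, a back muscle, sold as the loin) of Piedmontese by Hereford cattle after birth. Muscle at 20, 25 and 30 months, called here the fattening months, was set against muscle at 3, 7 and 12 months, called the growing months. These 2 names are working terms, and the samples were chosen by their labelled cross and age alone. They make up 6 of the 20 columns of the deposited array table. The other columns hold 4 fetal ages of the same cross and the same 10 ages of a Wagyu by Hereford cross. Each of the 6 columns stands for 4 animals, whose 24 RNA samples were run on 24 two-colour Agilent arrays, each array shared with a Wagyu cross sample of the same age. Feed, sex and myostatin genotype of the animals are not given in the labels, nor whether an animal was sampled more than once. Both sides of the comparison share the Piedmontese sire breed and the Hereford background.

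Growing cattle lay down muscle before fat. Fat within the muscle forms late, when fat cells between the fibres fill with triglyceride that they make from acetate and glucose or take up from the blood. Muscle growth after birth is by enlargement of existing fibres, driven by growth hormone and insulin-like growth factors and restrained by myostatin (MSTN), a secreted protein. The Piedmontese breed is heavily muscled, and an inactivating myostatin variant is common in it.

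All levels are on the deposited log scale, read as log2, and a difference is the mean of the 3 fattening ages minus the mean of the 3 growing ages in log2 units. There is 1 column per age, so the 3 ages of a side served as its samples, and the error after ± is the standard error of limma's estimate from the spread among ages of a side. A gene that keeps changing within a side therefore has a large error. P-values measure only the spread between these columns. Column medians were 6.31, 6.37 and 6.18 at 3, 7 and 12 months and 5.90, 6.10 and 6.32 at 20, 25 and 30 months, so the 20-month column was the lowest. The 25- and 30-month arrays were on 2 slides and the other 4 ages on 4 other slides. The 10% of rows with the lowest mean had a median of 3.11 to 3.41 at the 4 ages up to 20 months, and of 3.97 and 3.96 at 25 and 30 months. Muscle genes were abundant throughout: the 8 measured genes of the muscle identity list, among them ACTA1 (skeletal actin) and CKM (muscle creatine kinase), had a mean level of 17.18 to 17.99 in the 6 columns.

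One of 21475 array rows passed limma's test at an adjusted p of 0.05, which is 0.00466% of the rows. It was NEFM, the medium neurofilament protein of nerve axons. NEFM stood at 2.37, 2.81 and 2.18 at 3, 7 and 12 months and at 4.68, 4.96 and 5.18 at 20, 25 and 30 months. The groups did not overlap, and the growing values lay below the median of the lowest 10% of rows. NEFM rose, by 2.49 ± 0.25 in the fit (adjusted p = 0.0256, limma, n = 3 ages a side). Since the growing values were at the floor of the arrays, that size is uncertain; against the median of the lowest rows in the growing columns it was 1.68. Leaving out 20 or 7 months kept this call, while leaving out 3, 12, 25 or 30 months ended it, with an adjusted p of 0.214, 0.114, 0.121 and 0.365. With the slide set as a block, which sets 20 months alone against the growing ages, the difference was 2.23 (adjusted p = 0.619). In the Wagyu cross NEFM was at 2.83 at 20 months, 5.46 at 25 and 3.67 at 30.

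The test among ages had little reach: on simulated data of the same shape it recovered 8.5% of rows changed by 1 log2 unit and 97.5% of rows changed by 2. The changed rows there were drawn at random and moved by the same amount at all fattening ages. Those shares therefore do not hold for genes that keep changing within a side. The genes CIDEC, with a difference of 4.03, and SOCS2, with −2.62, did not pass (adjusted p = 0.115 and 0.139, limma). At an unadjusted p of 0.05, 2192 rows passed, 831 higher and 1361 lower. A second fit, chosen after these results were seen, kept the same differences. It took the error from how far the difference between the crosses varied among the ages of a side. Both crosses of an age were on the same arrays, so whatever an array or slide adds to both cancels from this error and counts as a difference between ages. The lowest 10% of rows stood higher at 25 and 30 months in the Wagyu cross too, at 3.93 and 4.07 against 2.99 to 3.31 before. These p-values are therefore too small as a test of the periods. They set the change only against how steady the difference between the crosses was among the ages of a side. A gene can pass without a like change in the Wagyu cross. The gene ABHD5 passed with a change of −0.74 in the Piedmontese and 0.007 in the Wagyu cross. The part of the slides was not tested. On simulated data the second fit recovered 96% of rows changed by 1 log2 unit. Unchanged rows there had no shift between the periods, so false calls from slides or ages could not appear. In the deposited data 1323 rows passed in that fit as higher and 2267 as lower in the fattening months (limma, adjusted p of 0.05). The split depended on scaling: it was 1751 and 1964 after quantile normalisation, and 4194 and 1518 with each column centred on its median. Below, an adjusted p "among ages" comes from the former fit and one "between crosses" from the latter.

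A further description needs no model: genes whose 3 fattening values all lay beyond all 3 growing values. Of 11329 named genes, 376 (3.32%) were higher in this sense and 1453 (12.8%) lower. After quantile normalisation the counts were 934 (8.24%) and 872 (7.7%), and with centred columns 1622 and 593. The excess of lower genes was present as deposited and absent under both scalings. Among the 376 higher genes the largest step between neighbouring ages came from 20 to 25 months in 145 and from 12 to 20 months in 118. Among the 1453 lower genes it came from 12 to 20 months in 1126. These steps were counted on the deposited scale only. In the 20-month column, the lowest, 59.5% of named genes lay below all growing values, and 23.3% after quantile normalisation. The step from 20 to 25 months falls on the change of slides. The parts of the column level and of the slides were not tested. In the fit between crosses, 5.56% of named genes passed as higher and 10.8% as lower. Counts in the lists below stand beside these shares. The lists and their members were chosen with earlier results of these data known, so the counts describe them and are no test.

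Genes of fat cells led the genes that were higher in the fattening months. CIDEC, which fuses lipid droplets in fat cells, stood at 8.92, 10.48 and 8.68 at 3, 7 and 12 months and at 11.93, 13.98 and 14.27 at 20, 25 and 30 months. Every fattening value lay above every growing value, and the highest growing value was that of 7 months. The difference was 4.03 ± 0.61 (adjusted p = 0.115 among ages and 0.000367 between crosses). FABP4, the fatty acid carrier of fat cells, stood at 9.29, 10.43 and 8.74 and then at 10.79, 12.39 and 13.58. It climbed through the fattening months, and its 20-month value was only just above that of 7 months. The difference was 2.77 ± 0.62 (adjusted p = 0.264 among ages and 0.00179 between crosses).

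TRARG1, a protein of glucose transporter vesicles in fat cells, stood at 7.10, 8.28 and 6.29 and then at 8.77, 10.44 and 11.57. This is the same order of ages as for FABP4, with 12 months lowest and 30 months highest. The difference was 3.04 ± 0.65 (adjusted p = 0.247 among ages and 0.00101 between crosses). ADIG (adipogenin, a small membrane protein of fat cells) differed by 2.10 ± 0.45, S100G (a small calcium-binding protein) by 2.01 ± 0.41 and ACSM1 (an acyl-CoA synthetase) by 2.47 ± 0.57. Their adjusted p among ages was 0.253, 0.228 and 0.264, and between crosses 0.00251, 0.00245 and 0.00374.

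Of 17 measured genes of the fat cell identity list, 6 lay higher at all fattening ages than at any growing age and 0 lower. After quantile normalisation 12 lay higher. S100G was among the 6, and whether it marks fat cells in this muscle was not tested. ADIG and ACSM1, named above, are not in this list. The shares of all named genes were 3.32% higher as deposited and 8.24% after quantile normalisation. Between crosses 10 passed as higher, where 5.56% of all named genes did, and 0 as lower, and none passed among ages. As the list was chosen with earlier results of these data known, its counts and median are descriptive only. The list's median difference was 0.66, against −0.09 for all named genes. PLIN1 (the coat protein of fat cell droplets) and PCK1 (an enzyme of glycerol synthesis in fat cells) differed by 1.81 and 1.86 without overlap. ADIPOQ (adiponectin, a hormone of fat cells) stood at 5.43, 6.76 and 4.47 and then at 6.56, 7.80 and 8.71. Its 20-month value was below that of 7 months, so the groups overlapped, and the difference was 2.14 (adjusted p = 0.337 among ages and 0.00347 between crosses). Several members moved little: the transcription factors PPARG and CEBPA, which drive fat cell formation, differed by 0.36 and 0.02, LPL (lipoprotein lipase) by −0.14 and LEP (leptin) by 0.38. LEP stood at 4.35 to 5.05, near the lowest rows, so its size is uncertain. In a sample of whole muscle, more fat cells and more of a transcript per fat cell cannot be told apart.

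**Figure D1:**
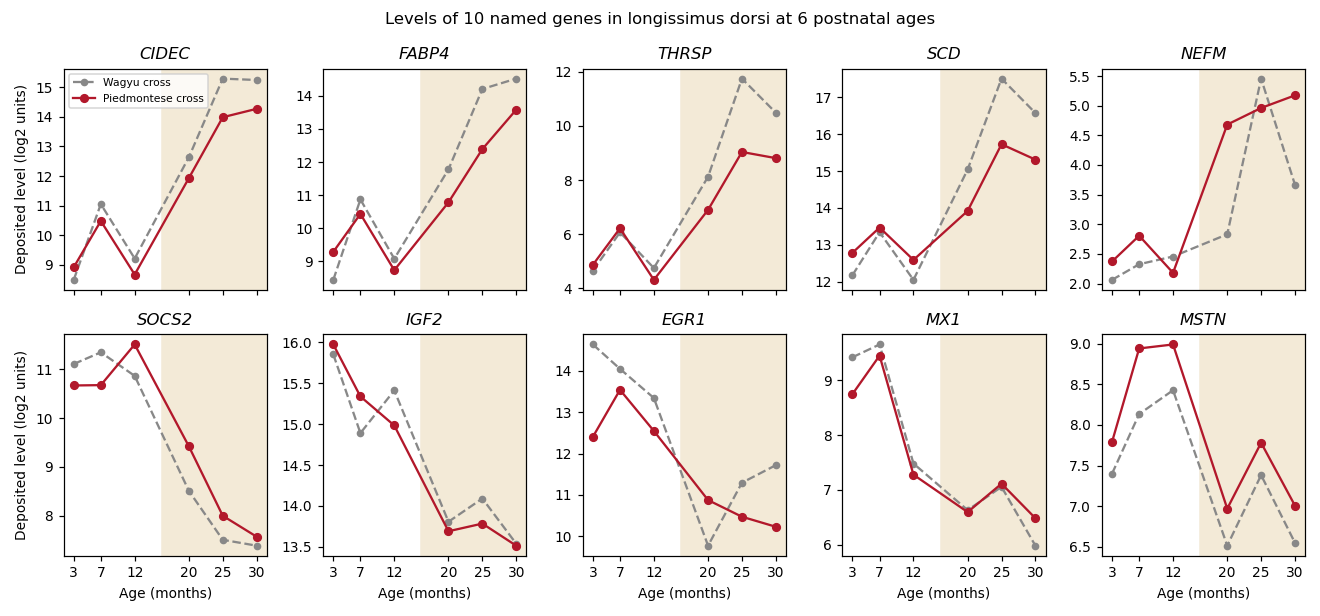
Deposited log2 level (vertical axis) of 10 named genes at 6 postnatal ages in months (horizontal axis), 1 point per column of 4 animals; red solid lines are the Piedmontese cross, grey dashed lines the Wagyu cross, and the shaded part holds the fattening months. CIDEC climbs from 8.68 at 12 months to 14.27 at 30 months in the Piedmontese cross, while SOCS2 drops from 11.51 to 7.57.

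Some genes of fatty acid synthesis followed. THRSP, a nuclear protein that promotes fat synthesis, stood at 4.87, 6.22 and 4.31 at 3, 7 and 12 months and at 6.90, 9.04 and 8.81 at 20, 25 and 30 months. The difference was 3.12 ± 0.58 (adjusted p = 0.155 among ages and 0.00134 between crosses). SCD, the desaturase that makes oleic acid, stood at 12.78, 13.47 and 12.59 and then at 13.92, 15.73 and 15.31. Both genes were highest at 25 months and did not overlap between the groups. The SCD difference was 2.04 ± 0.43 (adjusted p = 0.238 among ages and 0.0013 between crosses). ELOVL6, which lengthens palmitate, differed by 2.00 ± 0.51 (adjusted p = 0.307 among ages and 0.00245 between crosses).

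In the lipid synthesis list 6 of 19 measured genes were higher without overlap and 0 lower (12 and 0 after quantile normalisation), and 9 passed as higher between crosses. Among all named genes 3.32% were higher without overlap (8.24% after quantile normalisation), and 5.56% passed as higher between crosses. The median difference was 0.34. FASN, the fatty acid synthase, stood at 6.75, 8.01 and 6.31 and then at 7.76, 9.23 and 8.81. Its 20-month value lay below that of 7 months, as for ADIPOQ, and the difference was 1.58. DGAT2 (the last step of triglyceride synthesis) differed by 1.76 and ME1 (malic enzyme, a source of reducing power) by 0.85, both without overlap. INSIG1, a brake on sterol synthesis, and FADS2, a desaturase of polyunsaturated fatty acids, differed by −0.13 and −0.31, and their groups overlapped. Other members also overlapped: ACLY, ACSS2, SLC25A1, PGD and IDH1 differed by 0.31 to 0.34 and MLXIPL by −0.32.

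Among 8 lipolysis and droplet genes 1 was higher and 1 lower without overlap. The lower gene was ADRB3 (a beta-adrenergic receptor) at −0.29, from levels of 4.13 to 4.69, near the lowest rows. The higher gene was G0S2, an inhibitor of the main triglyceride lipase, at 1.04 ± 0.37 (adjusted p = 0.426 among ages and 0.0332 between crosses). ABHD5, the activator of that lipase, differed by −0.74 ± 0.31 (adjusted p = 0.468 and 0.0147). In the list of fatty acid oxidation and the fasting response, 1 of 15 genes was higher without overlap (CPT2, of the mitochondrial fatty acid carrier system, 0.72 ± 0.32) and 0 lower. FABP3, the fatty acid carrier of muscle itself, differed by 0.99 ± 0.45, and the list's median was −0.09 as deposited and 0.10 after quantile normalisation. After that scaling 2 lipolysis genes were higher and 1 lower, and in the oxidation list 3 and 0. Between crosses 1 lipolysis gene passed as higher and 1 as lower, and in the oxidation list 3 and 0. Of all named genes 3.32% were higher and 12.8% lower without overlap, and 8.24% and 7.7% after quantile normalisation. Between crosses 5.56% of them passed as higher and 10.8% as lower.

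Together, the mean level of the fat cell list was 8.47, 9.16 and 8.37 at 3, 7 and 12 months and 9.21, 10.11 and 10.52 at 20, 25 and 30 months. That of the lipid synthesis list was 9.39, 9.65 and 9.04 and then 9.51, 10.42 and 10.53. Both dipped from 7 to 12 months. At 20 months, on the same slides as the growing ages, the fat cell list's mean exceeded that at 7 months by little, and the list's median difference from the growing mean was 0.07, against −0.34 for all genes. For CIDEC alone that 20-month difference was 2.57, for THRSP 1.77 and for SCD 0.97.

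Among the 12 largest higher differences of genes without overlap were also CCN5 and COMP. CCN5, a matricellular protein, stood at 3.28, 5.26 and 6.31 and then at 6.63, 7.12 and 8.53. It was higher at each age than at the one before. Its 3-month value lay below the median of the lowest 10% of rows, and the difference was 2.48 ± 0.68 (adjusted p = 0.337 among ages and 0.00365 between crosses). COMP, a matrix protein of cartilage and tendon, stood at 6.37, 6.75 and 3.82 and then at 7.07, 7.87 and 7.99. The 12-month value was by far the lowest, and the difference was 2.00 ± 0.63 (adjusted p = 0.378 among ages and 0.0322 between crosses).

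SOCS2 had the largest difference among the genes that were lower in the fattening months without overlap. SOCS2, which dampens growth hormone signalling and is itself induced by it, stood at 10.67, 10.67 and 11.51 at 3, 7 and 12 months and at 9.42, 8.0 and 7.57 at 20, 25 and 30 months. The difference was −2.62 ± 0.44 (adjusted p = 0.139 among ages and 0.00179 between crosses). IGF2, an insulin-like growth factor of fetal and early growth, stood at 15.98, 15.34 and 14.98 and then at 13.69, 13.78 and 13.51. Both genes were lower at every fattening age than at any growing age. The IGF2 difference was −1.77 ± 0.28 (adjusted p = 0.132 among ages and 0.00179 between crosses). GPC3, a cell-surface proteoglycan that restrains body growth in humans and mice, differed by −1.74 ± 0.31 (adjusted p = 0.141 among ages and 0.00245 between crosses).

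In the growth hormone and IGF list 0 of 12 genes were higher and 2 lower without overlap, also after quantile normalisation. These 2 of 12 stand beside the 12.8% of all named genes that were lower. The median was −0.45, and 0 passed as higher and 5 as lower between crosses, where 10.8% of all named genes passed as lower. CISH, a relative of SOCS2 with the same role, stood at 11.38, 12.01 and 11.94 and then at 11.66, 9.63 and 10.75. Its 20-month value lay among the growing ones, unlike that of SOCS2. The receptors IGF1R and IGF2R differed by −0.50 and −0.65, and the growth hormone receptor GHR by 0.30.

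In the imprinted and fetal growth list 10 of 11 measured genes had a difference below 0 as deposited, where 6854 of 11329 named genes did. The median was −0.19 as deposited, −0.31 after quantile normalisation and −0.01 with centred columns. Without overlap 0 were higher and 3 lower (0 and 2 after quantile normalisation), and 4 passed as lower between crosses. The shares of all named genes that were lower were 12.8%, 7.7% and 10.8% in the same order. H19, the non-coding RNA gene beside IGF2, stood at 20.85, 20.87 and 20.54 and then at 19.88, 19.47 and 19.61. Its groups did not overlap, and it was among the most abundant signals of the arrays at all 6 ages. The difference was −1.10. MEST, an imprinted enzyme of early growth, differed by −1.23 ± 0.50 (adjusted p = 0.466 among ages and 0.0101 between crosses). IGF2BP3, a fetal RNA-binding protein, stood at 5.52, 4.51 and 3.72 in the growing months and at 2.85 to 3.43 in the fattening months, below the median of the lowest 10% of rows at each of those ages.

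MSTN stood at 7.79, 8.94 and 8.99 at 3, 7 and 12 months and at 6.97, 7.78 and 7.01 at 20, 25 and 30 months. The groups were separate only by the margin between 3 and 25 months. The difference was −1.32 ± 0.36 (adjusted p = 0.337 among ages and 0.00179 between crosses). INHA, the alpha subunit of inhibin, stood at 13.55, 11.84 and 11.34 and then at 10.20, 10.65 and 10.03, a difference of −1.95 ± 0.47 (adjusted p = 0.278 and 0.00245). FST (follistatin), a secreted inhibitor of myostatin and activins, differed by −0.84. In the myostatin and activin list 0 of 11 genes were higher and 3 lower without overlap (1 and 2 after quantile normalisation, which moved a single gene into the higher count), and the median was −0.25. Between crosses 1 passed as higher and 4 as lower. Of all named genes 12.8% were lower without overlap (7.7% after quantile normalisation), and 10.8% passed as lower between crosses.

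The immediate early genes are switched on within minutes of a stimulus to the cell. EGR1, a zinc finger factor of this class, stood at 12.40, 13.54 and 12.55 and then at 10.87, 10.47 and 10.23. Its groups lay more than a log2 unit apart, and the difference was −2.31 ± 0.33 (adjusted p = 0.115 among ages and 0.0158 between crosses). Of 15 genes 4 were lower and 0 higher without overlap (4 and 1 after quantile normalisation), 6 passed as lower between crosses, and the median was −0.67. For all named genes the shares were 12.8% lower without overlap (7.7% after quantile normalisation) and 10.8% lower between crosses. NR4A3, a nuclear receptor of the same class, spanned 4.28 to 11.35 within the growing months, with the top value at 3 months. Its difference was −1.42 ± 1.29, and 0.44 without that age. Glucocorticoid-responsive genes had a median of −0.69, with 0 of 8 higher and 2 lower without overlap (0 and 1 after quantile normalisation). CEBPD and FKBP5, both induced by cortisol, differed by −1.57 ± 0.76 and −1.42 ± 0.75 and were highest at 3 months and next highest at 30 months. Circadian genes had a median of −0.38, 0 of 7 higher and 1 lower (0 and 0), with PER1, a repressor of the clock, at −0.79 ± 0.35 and NR1D2, another clock repressor, at −0.59 ± 0.30.

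Among interferon-induced antiviral genes 4 of 11 were lower without overlap, where 12.8% of all named genes were, and none passed among ages. MX1, a GTPase that blocks viruses, stood at 8.75, 9.44 and 7.28 and then at 6.60, 7.11 and 6.49. ISG15, a ubiquitin-like modifier, stood at 8.76, 9.44 and 8.79 and then at 7.33, 8.0 and 7.15. In both the groups were separate, and 7 months was the highest age. The differences were −1.76 ± 0.46 and −1.50 ± 0.30 (adjusted p = 0.335 and 0.204 among ages, and 0.00164 and 0.0184 between crosses). None of the 11 was higher without overlap, and the median was −0.57. After quantile normalisation 6 were lower (7.7% of all named genes), and 5 passed as lower between crosses (10.8% of all named genes). Antigen presentation genes had a median of −0.13, with 0 of 15 higher and 1 lower (1 and 0 after quantile normalisation). The lower gene was CIITA, the master regulator of class II histocompatibility genes, at −1.36 ± 0.42 (adjusted p = 0.375 and 0.00516), while the class II invariant chain CD74 differed by −0.63 ± 0.41.

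The remaining genes among the 12 largest lower differences without overlap were SH3RF2 (a ubiquitin ligase with SH3 domains), MOB3B, SIX3 (a homeobox factor), PRR32, USP53 and GFPT2 (the entry enzyme of hexosamine synthesis). SH3RF2 stood at 12.56, 10.69 and 12.06 and then at 9.69, 9.55 and 9.08, a difference of −2.33 ± 0.42 (adjusted p = 0.149 among ages and 0.00179 between crosses). The other 5 genes differed by −2.02 to −1.71, with an adjusted p among ages of 0.115 to 0.354. USP53 was lowest at 20 months, at 11.25, against 13.26 and 13.28 at 25 and 30 months.

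**Figure D2:**
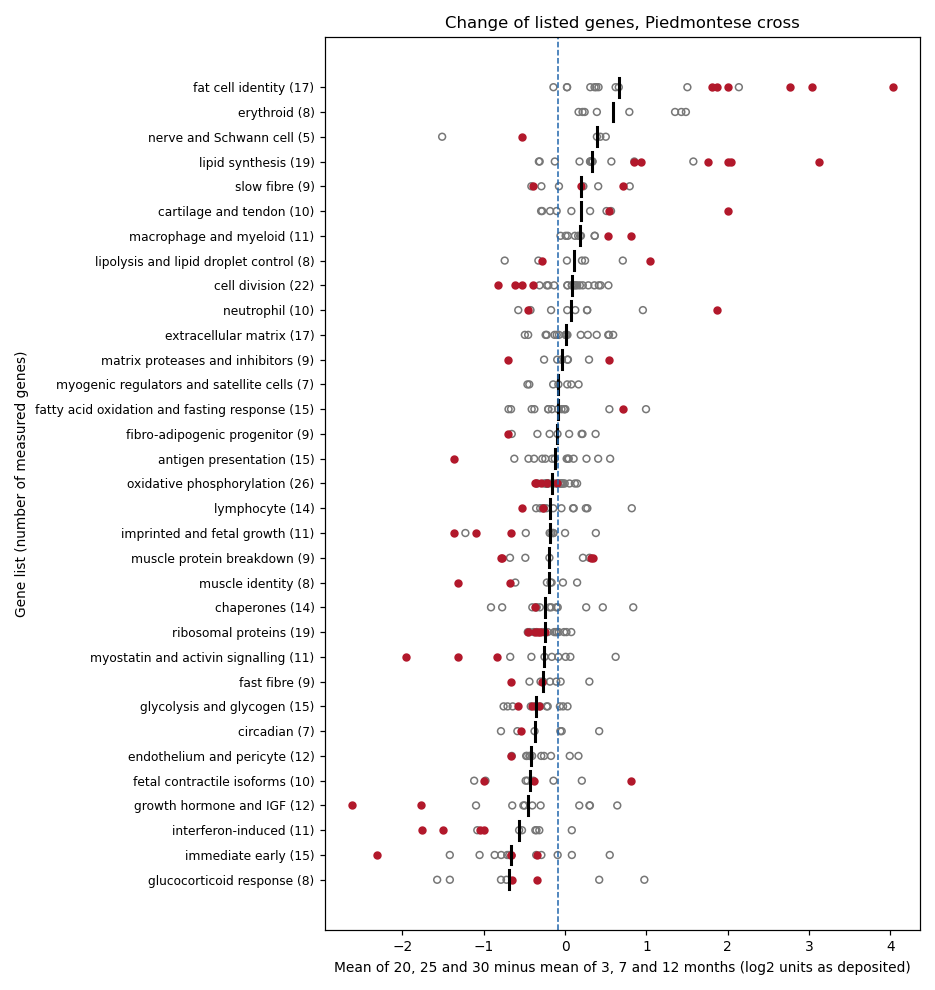
Difference between fattening and growing months in the Piedmontese cross (horizontal axis, log2 units as deposited) for each measured gene of 33 lists (vertical axis, number of genes in parentheses); red filled points are genes whose 3 fattening values all lie beyond all 3 growing values, open points the others, black bars the list medians and the blue dashed line the median of all named genes (−0.09). Fat cell identity has the highest median (0.66) and the glucocorticoid response the lowest (−0.69).

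In the lists of the contractile apparatus and its energy supply, differences ran from −0.76 to 0.79. For these and the lists that follow, 3.32% of all named genes were higher and 12.8% lower without overlap. After quantile normalisation these shares were 8.24% and 7.7%. Fast fibre genes had a median of −0.27, with 0 of 9 higher and 2 lower without overlap (0 and 1 after quantile normalisation). ACTN3 (fast fibre alpha-actinin) differed by −0.67 ± 0.27 and TNNT3 (fast troponin T) by −0.44 ± 0.26. Slow fibre genes had a median of 0.19, with 2 of 9 higher and 1 lower (1 and 0), CSRP3 (a muscle LIM protein) at 0.79 ± 0.45 and MYOZ2 (a Z-disc protein of slow fibres) at 0.72 ± 0.29. Oxidative phosphorylation genes had a median of −0.16 as deposited and 0.06 after quantile normalisation, and their counts turned with the scale, from 0 of 26 higher and 5 lower to 4 and 1. The glycolysis and glycogen list had a median of −0.36, 0 of 15 higher and 3 lower (1 and 0). There PHKG1, a subunit of phosphorylase kinase, was at −0.76 ± 0.36 and PKM, pyruvate kinase, at −0.71 ± 0.32. SDHB and UQCRC2, subunits of the respiratory chain, had the largest differences of their list and were at −0.36 and −0.35. None of the 4 lists had a gene pass among ages, and between crosses a single gene passed, PHKG1 (adjusted p = 0.0308).

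In the muscle identity list the median was −0.20, 0 of 8 genes were higher and 2 lower without overlap (0 and 1 after quantile normalisation). CAV3, the caveolin of muscle, stood at 12.18, 12.02 and 11.26 and then at 10.42, 10.61 and 10.48, a difference of −1.32 ± 0.28 (adjusted p = 0.238 and 0.0048). CAPN3, the muscle calpain, differed by −0.68 ± 0.26. Fetal contractile isoforms had a median of −0.43, 1 of 10 higher and 2 lower (1 and 2), and 1 higher and 3 lower between crosses. Among the listed genes MYH3 (embryonic myosin) differed by −1.12 ± 0.41. CHRNA1, an acetylcholine receptor subunit and not a contractile isoform, differed by −0.997 ± 0.285 and was among the lower genes without overlap. MYH8 (perinatal myosin) was at 0.81, from levels of 1.73 to 2.87 that lay below the median of the lowest 10% of rows. Myogenic regulators had a median of −0.08, with 0 of 7 higher or lower without overlap. CDH15 (a cadherin of muscle precursors) was at −0.46 ± 0.30 and MEF2A (a muscle transcription factor) at −0.44 ± 0.30.

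Muscle protein breakdown genes had a median of −0.19 and were split, with 2 of 9 higher and 2 lower without overlap (2 and 1 after quantile normalisation). CAPN1, the calpain that tenderises meat after slaughter, was at −0.77 ± 0.23 and its inhibitor CAST (calpastatin) at 0.34. KLF15, a glucocorticoid-induced factor of amino acid breakdown, was at −0.79 ± 0.25. Cell division genes had a median of 0.08, 0 of 22 higher and 4 lower (0 and 0), with MCM3 (replication helicase) at −0.83 ± 0.34 and RRM1 (ribonucleotide reductase) at −0.61 ± 0.26. Chaperones had a median of −0.25, 0 of 14 higher and 1 lower (1 and 0), with DNAJB1 at −0.91 ± 0.35 and DNAJA4 at 0.84 ± 0.37, both partners of HSP70. Ribosomal protein genes had a median of −0.25, 0 of 19 higher and 5 lower (1 and 3), RPS20 and RPS9 having the largest differences at −0.46 and −0.45.

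The extracellular matrix list had a median of 0.01 and 0 of 17 genes without overlap in either direction. FN1 (fibronectin) was at 0.59 ± 0.39 and BGN (biglycan) at 0.54 ± 0.55. The mean level of the list was 12.14, 12.03 and 10.57 at 3, 7 and 12 months and 11.41, 11.64 and 11.84 at 20, 25 and 30 months, so 12 months was the low point. Matrix proteases and their inhibitors had a median of −0.04, 1 of 9 higher and 1 lower without overlap (1 and 1 after quantile normalisation), namely PLAU (urokinase) at 0.54 ± 0.24 and ADAMTS1 (a proteoglycan-cleaving protease) at −0.71 ± 0.22. The cartilage and tendon list had a median of 0.19 and 2 of 10 higher and 0 lower (1 and 0), COMP and SCX, a tendon transcription factor that lay below the median of the lowest 10% of rows at 5 of the 6 ages; THBS4, a tendon thrombospondin, was at 0.56 ± 0.36.

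**Figure D3:**
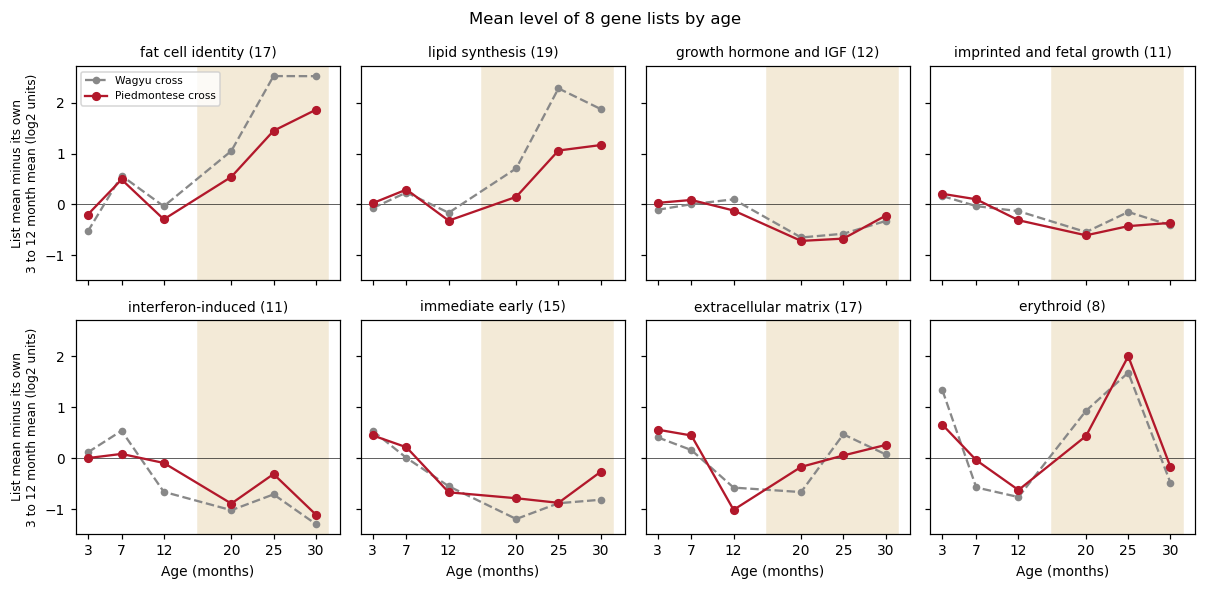
Mean level of 8 gene lists at each age in months (horizontal axis), given as the difference from the same list's mean over 3, 7 and 12 months (vertical axis, log2 units), with the number of measured genes in parentheses; red solid lines are the Piedmontese cross, grey dashed lines the Wagyu cross and the shaded part the fattening months. The fat cell list reaches 1.86 in the Piedmontese and 2.52 in the Wagyu cross at 30 months, and the erythroid list peaks at 25 months.

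Markers of other cells in the tissue are given next. Their counts stand beside the same shares of all named genes, 3.32% higher and 12.8% lower. The erythroid list had a median of 0.59 with all 8 genes above 0 but 0 without overlap. HBG, a globin, stood at 10.33, 9.21 and 7.89 at 3, 7 and 12 months and at 10.23, 13.51 and 7.98 at 20, 25 and 30 months. Its difference was 1.43 ± 1.09, and −0.04 without 25 months, and HBB, the beta globin, was also highest at 25 months. The part of blood in the other results was not tested. Macrophage and myeloid genes had a median of 0.18, 2 of 11 higher and 0 lower (2 and 0 after quantile normalisation): ITGAM, an integrin of myeloid cells, at 0.81 ± 0.29 and AIF1, a macrophage protein, at 0.53 ± 0.29. ITGAM stood between 3.50 and 4.85 at all ages, near the lowest rows.

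Neutrophil genes had a median of 0.08, 1 of 10 higher and 1 lower (2 and 1). CATHL5, an antimicrobial cathelicidin, stood at 5.09, 5.07 and 4.84 and then at 5.54, 7.66 and 7.40, while the neutrophil calgranulin S100A8 differed by −0.17. The step of CATHL5 came with the change of slides from 20 to 25 months, and at 20 months it was 0.54 above the growing mean. CATHL1, another cathelicidin, lay below the median of the lowest 10% of rows at all ages but 30 months, so no size is given. Lymphocyte genes had a median of −0.19, 0 of 14 higher and 2 lower (0 and 0), with the immunoglobulin joining chain JCHAIN at 0.82 ± 0.39 and the T cell co-receptor CD4 at −0.53 ± 0.25. Endothelium and pericyte genes had a median of −0.42, 0 of 12 higher and 1 lower (0 and 0), TEK (an angiopoietin receptor) at −0.67 ± 0.27 and ENG (endoglin) at −0.66 ± 0.42.

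For the nerve, 5 genes were measured, with a median of 0.39, 0 higher and 1 lower (1 and 1). The myelin protein genes PMP22 and MBP were at −1.51 ± 0.49 and −0.53 ± 0.23, while S100B, a marker of Schwann cells that fat cells also express, was at 0.50. PMP22 stood at 11.56 to 14.93 over the ages and MBP at 5.80 to 6.61. Which cells the PMP22 signal came from was not tested. The 3 genes of the list other than PMP22 and MBP, S100B among them, were above 0. Fibro-adipogenic progenitor genes, marking the stromal cells from which muscle fat cells arise, had a median of −0.09, 0 of 9 higher and 1 lower (0 and 0), CXCL14 (a chemokine) at −0.70 ± 0.27 and ENG as above.

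Whether the change from growing to fattening months differed between the crosses was tested on the Piedmontese minus Wagyu difference at each of the 6 ages, which compares samples of the same arrays. None of 21475 rows passed (limma, 0.0% of rows; smallest adjusted p = 0.435), 2451 passed at an unadjusted p of 0.05, and on simulated data the test recovered 55.5% of rows changed by 1 log2 unit. Of the 2451 rows, 2411 had the lower change in the Piedmontese cross, and the median over all rows was −0.25. After quantile normalisation that median was 0.00, with 528 rows higher and 547 lower at the unadjusted threshold. The general shift was absent on that scale, and the values after quantile normalisation are given beside those as deposited.

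SCD had the smallest p. In the Wagyu cross it stood at 12.17, 13.34 and 12.05 at 3, 7 and 12 months and at 15.04, 17.51 and 16.58 at 20, 25 and 30 months. The Piedmontese cross was above the Wagyu cross by 0.13 to 0.61 in the growing months, and its difference from it was −1.12, −1.78 and −1.27 in the fattening months. The change was thus 2.04 ± 0.43 in the Piedmontese and 3.86 ± 0.56 in the Wagyu cross. They differed by −1.82 ± 0.23 (adjusted p = 0.435, limma), and by −1.48 after quantile normalisation.

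The other 5 genes named for the smallest p on this side were SCD5 (a second desaturase), CYP2B6 (a cytochrome P450), AGPAT2 (an acyltransferase of triglyceride synthesis), GSTA2 (a glutathione transferase) and ATP6V1E2 (a subunit of the proton pump). Their changes differed by −1.20 to −1.03, and by −1.11 to −0.81 after quantile normalisation (adjusted p = 0.435 for each). CYP2B6 stood at 3.19 to 3.21 in the Wagyu growing months and GSTA2 at 3.47 to 3.80 in the Piedmontese growing months. Both lie near the lowest rows, so their sizes are uncertain. SCD5 was level between the crosses in the growing months (a mean difference of 0.00) and at −1.20 in the fattening months. On the other side ATF3 and FOS, both immediate early factors, differed by 1.47 ± 0.36 and 1.43 ± 0.46 (1.64 and 1.57 after quantile normalisation), and OTUD1 (a deubiquitinase) by 1.91 ± 0.59 (2.04). C10H15orf48 and IL6 (an inflammatory cytokine) differed by 0.69 and 0.66 (0.95 and 0.81). IL6 stood at 3.34 to 4.66 in the Piedmontese cross, near the lowest rows, so its size is uncertain. The last gene named, LOC529488, lay below the median of the lowest 10% of rows at 3 and 12 months, so no size is given for it. FOS was at −2.37 on average relative to the Wagyu cross in the growing months and at −0.94 in the fattening months. Its change was −0.87 ± 0.37 in the Piedmontese and −2.30 ± 0.44 in the Wagyu cross.

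By list, the Piedmontese minus Wagyu level was lower at all fattening than at all growing ages for 10 of 17 fat cell genes and 12 of 19 lipid synthesis genes, and higher for 0 of each. Among all named genes 22.6% were lower and 0.247% higher in this sense. The median difference between the crosses' changes was −0.76 for fat cell genes and −0.78 for lipid synthesis genes, and −0.25 for all named genes. After quantile normalisation it was −0.51 and −0.53, against 0.00. Among the other lists, lipolysis and lipid droplet control was at −0.72 and −0.46 and fatty acid oxidation at −0.45 and −0.19. The cartilage and tendon list was at 0.26 and 0.49, the immediate early list at 0.15 and 0.41, and the interferon list at 0.14 and 0.41. The list medians of the change itself were 0.66 in the Piedmontese and 1.79 in the Wagyu cross for fat cell genes, and 0.34 and 1.27 for lipid synthesis. For MSTN the changes were −1.32 and −1.17 and for IGF2 −1.77 and −1.57. The difference between crosses was −0.15 ± 0.17 for MSTN and −0.20 ± 0.24 for IGF2 (adjusted p = 0.603 and 0.621). After quantile normalisation these turned to 0.10 and 0.07, so neither has a direction that holds on both scales.

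**Figure D4:**
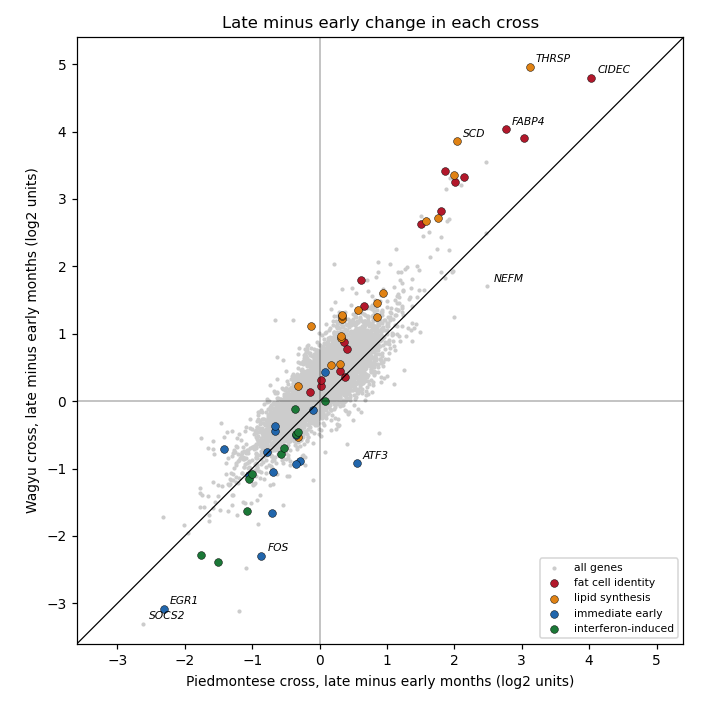
Difference between fattening and growing months in the Piedmontese cross (horizontal axis) and in the Wagyu cross (vertical axis), both in log2 units as deposited; each point is a gene, grey for all 11329 named genes and coloured for 4 lists, and the diagonal marks equal change. Above the diagonal lie 16 of 17 fat cell and 18 of 19 lipid synthesis genes, and also 10170 of all 11329 named genes; SCD lies at 2.04 and 3.86, while NEFM lies below it at 2.49 and 1.70.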

How the data were processed

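Longissimus RNA of both crosses was labelled with opposite dyes and shared Agilent arrays. Scans were read with Agilent Feature Extraction 8.5.1.1, per the submitters' processing notes. In the deposited table each array row has 1 value for every cross and age, taken here to be log2 because the values run like log intensities. The sources used here do not state the log base, the background correction, the normalisation or how the 4 individuals were averaged. There are no missing cells. The fits rest on 1 column per cross and age, so the number of ages limits the precision. The platform annotation named a single gene for 12276 of the 21475 rows and no gene for 9199. Where a gene had several rows, the row with the highest mean over all columns stands for it, which left 11329 genes.

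The values were tested as deposited with limma 3.58.1 in R 4.3.3 (lmFit and eBayes, two-sided, Benjamini-Hochberg adjustment over all rows, threshold 0.05), the 3 ages of a side being its samples. An exact permutation test of 3 against 3 cannot go below 0.1. Every adjusted p in the text is limma's. The difference between crosses was fitted on the Piedmontese minus Wagyu value at each age. Another fit, added after the data were seen, used the 12 postnatal columns with terms for age, cross and their interaction with period. All 3 fits were run on simulated data, in which a changed row moved by the same amount at all fattening ages. For the fit added later, the simulated unchanged rows had no shift between the periods, so its false calls from slides or ages were not tested.

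Named genes are the 12 in each direction with the largest difference among those that passed or, to fill the number, that did not overlap between groups; in each of 33 lists the 2 members with the largest difference where none passed; MSTN; and the 6 in each direction with the smallest p for the cross difference. Other list members and genes named in the text (among them ADIPOQ, FASN, CISH, H19, PPARG, LPL, LEP and CAST) were chosen after their values were seen. The members and lists were chosen with earlier results of these data known. Alternatives were quantile normalisation, centring, a filter on low rows, a trended robust prior, averaged rows, a slide block, a trend over age, other ages or columns in the fit, and each age left out. Tables and plots were made with Python 3.11.15.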

Additional observations from a re-analysis of the deposited data

How the results depend on the processing

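The count of rows that passed in the Piedmontese comparison (1 as deposited, NEFM) was also 1 after quantile normalisation, centring, averaging the rows of a gene, and for 25 and 30 against 3 and 7 months. It was 0 with the lowest 25% of rows left out, which drops NEFM, 15 with a trended robust prior, 35 for a trend over the rank of age, 4 with all 12 postnatal columns in the fit, and 0 with the slide set as a block, as deposited and after quantile normalisation. At an unadjusted p of 0.05 those zero counts stand against 1792, 1519 and 745 rows. Leaving out each age in turn gave 0 to 11 rows: 11 without 20 months, 3 without 7 months and 0 without each of the others. With the error taken between crosses, chosen after seeing the data, 3590 rows passed, 3715 after quantile normalisation and 5712 with centred columns. NEFM kept its direction in all settings that tested it and missed the threshold in 8, with an adjusted p of 0.114 to 0.619 (limma).

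Among the other named genes the direction turned for 7. With the slide set as a block BGN was at −0.39 and CATHL1 at −0.15. With that block after quantile normalisation UQCRC2 was at 0.0037, CDH15 at 0.0839, MEF2A at 0.22 and BGN at −0.0261. With each age left out BGN ranged from −0.052 to 1.003, NR4A3 from −3.10 to 0.44 and HBG from −0.0396 to 2.727. The causes were not tested. The slide block sets 20 months alone against the growing ages, where the lipid synthesis median was −0.07 and that of all rows −0.32. The cross difference passed in 0 rows in all 12 settings, with a smallest adjusted p of 0.0791 without 12 months and 0.435 as deposited, while the rows at an unadjusted p of 0.05 numbered 110 with no age block, 920 with centred columns and 8074 without 12 months. No paired analysis was possible because the columns are means over individuals and the labels give no number that ties a column of one age to a column of another.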
